A study of Mus musculus with 4 samples.

Results

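The regions described here lie at the odorant receptor genes of mouse chromosomes 1 to 19. They were taken from a table of called CUT&RUN regions by position: a region was a member when it overlapped, by at least 1 bp, the body of a protein-coding gene whose symbol starts with Olfr, or the 5 kb on either side of it. By this rule 7626 of the 1578514 regions of the table were members, out of 1517324 on chromosomes 1 to 19. Members made up 0.503% of the regions of these chromosomes, and the gene windows held 0.522% of their sequence. The windows belong to 1103 genes, which formed 52 clusters when gaps of up to 500 kb were bridged. Of these clusters, 32 had at least 5 genes and together held 1065 genes.

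The study looked for the genomic targets of Six3, a homeodomain protein that acts early in the forebrain and the eye primordium, in primary mouse neural stem cells. The cells carried the label WT as genotype and had been made to overexpress Six3. All were collected 3 h after the medium with growth factors was changed for a differentiation medium (neurobasal with B-27). The FLAG tag of Six3 was targeted in 3 libraries and IgG was used in 1 library, in CUT&RUN, where protein A/G fused to micrococcal nuclease cuts DNA beside the bound antibody. The labels do not say how many animals or cultures the libraries came from. Overexpressed, tagged Six3 need not bind where the cell's own Six3 does.

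The table has 1 combined list of regions and no column for a single library. FLAG and IgG could therefore not be compared at any region, a region is not by itself a site of Six3, and the depth behind each value is unknown. Each region has the highest coverage signal within it, called its height here. Apart from 3 regions of the table, none of them a member, heights fell on whole multiples of either 1.9 or 0.48 but not of both, within 0.001 of a step. The 3 left out met both steps or neither. The 2 step sets are kept apart because their signals need not be on the same scale. Heights and sums of signal are the authors' own values. No RNA was measured, so the labelled cell type could not be checked against its markers.

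Odorant receptors are G-protein-coupled receptors of the olfactory epithelium, and their genes form the largest gene family of the mouse genome. A mature olfactory sensory neuron transcribes a single allele of a single receptor gene, while the other copies lie in heterochromatin. The genes are short, have their coding sequence in an uninterrupted exon, and stand in long tandem arrays with few other genes. Class I receptors, the class shared with fish, are gathered beside the beta-globin locus, and class II receptors are spread over many clusters. Homeodomain factors such as Lhx2, and the Ebf factors, bind at receptor genes and their enhancers in olfactory neurons.

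The 250 bases before the annotated start of 5 receptor genes show what sequence the regions lie on at these loci. The genes come from the rule for named genes: the first 4 in its order whose upstream bases are covered by a region, and 1 whose upstream bases are not. The sequences are RefSeq's on GRCm38.p6, read 5′ to 3′ on the strand of the gene. Capitals mark matches, on either strand, to TGATAC, a core bound by factors of the family of Six3. TAATTA, a homeodomain core, and the Ebf core, TCCC and GGGA with 2 bases between, were searched in the same way, and neither occurs in these 5 windows. Olfr723 is read from chr14:49929569-49929818 on the minus strand, Olfr552 from chr7:102604106-102604355 on the plus strand, Olfr288 from chr15:98195543-98195792 on the minus strand, Olfr1351 from chr10:79017074-79017323 on the plus strand, and Olfr1480, the uncovered one, from chr19:13529425-13529674 on the plus strand.
Olfr723: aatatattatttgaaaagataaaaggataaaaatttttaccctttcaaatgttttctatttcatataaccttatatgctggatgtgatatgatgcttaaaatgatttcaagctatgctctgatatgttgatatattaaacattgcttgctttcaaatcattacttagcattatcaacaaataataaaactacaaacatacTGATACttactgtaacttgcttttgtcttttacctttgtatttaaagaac
Olfr552: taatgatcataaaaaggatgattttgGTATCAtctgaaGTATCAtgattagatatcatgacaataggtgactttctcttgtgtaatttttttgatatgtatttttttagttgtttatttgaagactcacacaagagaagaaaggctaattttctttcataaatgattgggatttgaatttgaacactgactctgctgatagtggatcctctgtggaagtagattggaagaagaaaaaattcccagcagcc
Olfr288: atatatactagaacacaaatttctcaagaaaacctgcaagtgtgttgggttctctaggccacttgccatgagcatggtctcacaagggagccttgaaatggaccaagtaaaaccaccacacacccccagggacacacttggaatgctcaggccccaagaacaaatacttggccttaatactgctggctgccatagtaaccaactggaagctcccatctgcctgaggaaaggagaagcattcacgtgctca
Olfr1351: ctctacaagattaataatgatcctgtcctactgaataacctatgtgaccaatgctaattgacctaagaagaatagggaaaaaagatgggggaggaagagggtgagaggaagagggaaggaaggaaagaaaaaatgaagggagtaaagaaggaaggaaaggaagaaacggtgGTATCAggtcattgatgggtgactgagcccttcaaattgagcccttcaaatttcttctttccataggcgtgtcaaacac
Olfr1480: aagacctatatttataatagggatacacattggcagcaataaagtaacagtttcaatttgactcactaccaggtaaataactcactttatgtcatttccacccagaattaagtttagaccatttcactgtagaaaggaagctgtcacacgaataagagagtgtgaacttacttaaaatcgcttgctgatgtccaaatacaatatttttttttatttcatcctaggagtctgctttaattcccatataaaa

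The 4 covered windows differ in makeup and in the regions over them. At Olfr723 a 1.9-step region of height 5.7 covered 244 of the 250 bases, which have a GC content of 24.8% and 1 match. At Olfr1351 a 1.9-step region of height 5.7 covered 183 bases, with a GC content of 42% and 1 match. The window of Olfr288 has a GC content of 48.0% and no match, and was covered over all 250 bases by a 1.9-step region of height 11.4 and over 194 bases by a 0.48-step region of height 1.44. The window of Olfr552 has 2 matches, at positions 27 and 39, and only a 0.48-step region of height 0.96 lay over it, on 166 bases. Olfr1480, with a GC content of 32.8%, has no match and no region there. At Olfr552, Olfr1351 and Olfr1480 the gene model begins with the start codon, so the bases printed precede the coding sequence and need not be the promoter.

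The 1.9-step set held 4491 of the members, and 3135 belonged to the 0.48-step set. The first made up 58.9% of members, beside 60.3% of all regions on chromosomes 1 to 19. Most members touched the window of a single gene, 7231 in number, and 395 (5.18%) touched the windows of 2 or 3 neighbouring genes. Only 1568 members (20.6%) overlapped a gene body, since the median receptor gene is 951 bp long against 17574 bp for all protein-coding genes.

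Heights of members were low and took few values. In the 1.9-step set they ran from 3.8 to 30.4 with a median of 5.7, which is 3 steps: 1788 members had 2 steps, 1826 had 3 and 662 had 4. In the 0.48-step set they ran from 0.96 to 3.36 with a median of 0.96, which is 2 steps. Median widths were 452 bp and 198 bp. Over all regions of chromosomes 1 to 19 the median heights were the same, 3 and 2 steps, and the median widths were 456 bp and 194 bp.

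Receptor gene windows held fewer and lower 1.9-step regions than the sequence around their clusters, and about as many 0.48-step regions. For this comparison each region was placed by its midpoint, and the flanks were the 1 Mb on either side of each cluster. The 1.9-step set had 345 regions per Mb in 12.5 Mb of windows and 391 per Mb in 92.4 Mb of flanks. The ratio was 0.883, with an exact 95% interval from 0.856 to 0.912. The 0.48-step set had 245 and 251 regions per Mb, a ratio of 0.979 with an interval from 0.942 to 1.02. These intervals cover counting error only, and treat neighbouring regions as independent, which they need not be. The share of bases covered followed the same pattern: 17.3% against 19.96% for the 1.9-step set, and 5.61% against 5.64% for the 0.48-step set.

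The shortfall was larger the taller the regions. In the 1.9-step set, windows held as many regions of 2 steps per Mb as the flanks, with a ratio of 0.998 (95% interval 0.949 to 1.05). The ratio was 0.870 at 3 steps, 0.764 at 4 steps and 0.683 at 5 steps. At 6 or more steps it was 0.538 (0.378 to 0.745), from 39 regions in windows and 534 in flanks. Regions of at least 4 steps, called tall below, were 19.4% of the 1.9-step regions in windows (95% Clopper-Pearson interval 18.2% to 20.6%) and 23.3% in flanks (22.9% to 23.8%). In the 0.48-step set the tall share was 4.58% (3.87% to 5.38%) and 4.45% (4.19% to 4.72%), and the ratios at 2, 3 and 4 steps were 0.965, 1.02 and 1.05.

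**Figure D1:**
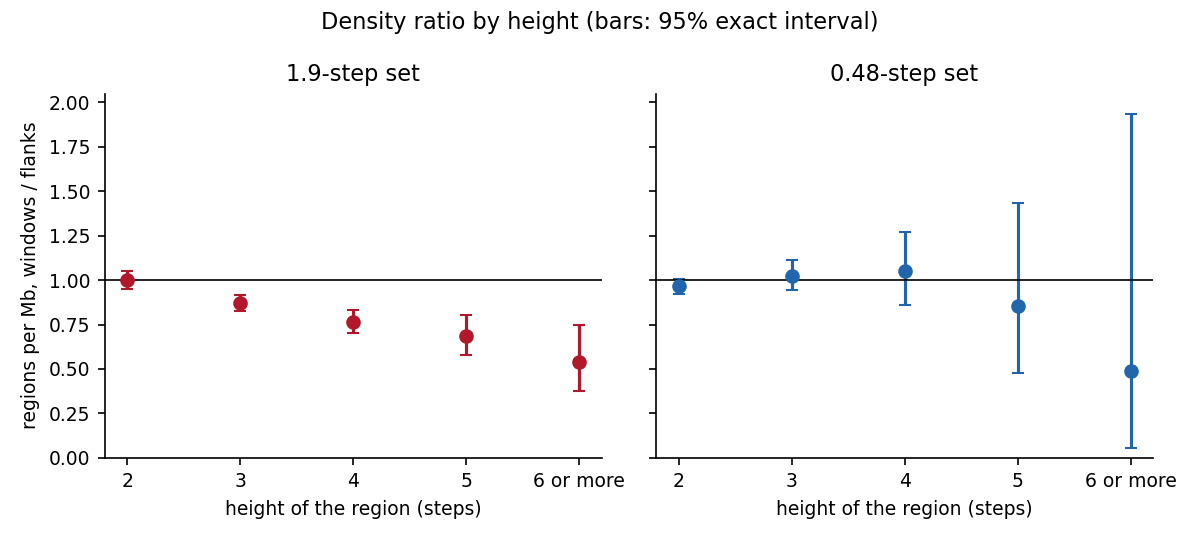
Regions per Mb in odorant receptor gene windows divided by regions per Mb in the 1 Mb flanks (vertical axis), by the height of the region in steps (horizontal axis), for the 1.9-step set (left) and the 0.48-step set (right). Points are pooled ratios and bars are exact 95% intervals for counting error; the 1.9-step ratio goes from 0.998 at 2 steps to 0.538 at 6 or more, while each 0.48-step interval includes 1.

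The flanks differ from the receptor windows in gene content. Bodies of protein-coding genes filled 51.9% of the flanks but 17.4% of the windows. Against the part of the flanks outside gene bodies, the 1.9-step ratio was 0.947 (0.915 to 0.979) and the 0.48-step ratio 1.03 (0.985 to 1.07). The tall share of 1.9-step regions was 22.8% there, still above the 19.4% of the windows. Against gaps of at least 1 Mb between protein-coding genes anywhere on chromosomes 1 to 19, which held 343 and 247 regions per Mb, the windows had ratios of 1.01 (0.977 to 1.04) and 0.995 (0.960 to 1.03). Both of these intervals include 1. The tall share of 1.9-step regions in those gaps was 20.9% (20.7% to 21.1%), slightly above the 19.4% of the windows. The part of gene content in the difference was not tested beyond these values, and GC content and mappability of the windows and flanks were not measured.

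Density was already higher in the first 100 kb outside the clusters than in the windows. The windows were pooled here, so the place of the change inside a cluster was not resolved. For the clusters of at least 5 genes, windows had 343 1.9-step regions per Mb, and the first 100 kb outside had 374 per Mb. Farther out, in steps of 100 kb up to 1 Mb, values lay between 367 and 403 per Mb with no steady slope. The tall share was 19.5% in these windows, 22.0% in the first 100 kb and between 22.2% and 24.1% beyond. The share of sequence in gene bodies rose over the same step, from 17.6% in the windows to 42.9% in the first 100 kb. Beyond, it lay between 47.6% and 56.7%. Sequence inside the clusters but between the windows was, if anything, sparser than the windows, at 330 1.9-step regions per Mb. Its 0.48-step ratio to flanks was 0.964 (0.933 to 0.996), and that of whole cluster spans was 0.970 (0.945 to 0.996). Both of these intervals leave out 1, unlike that of the windows alone.

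**Figure D2:**
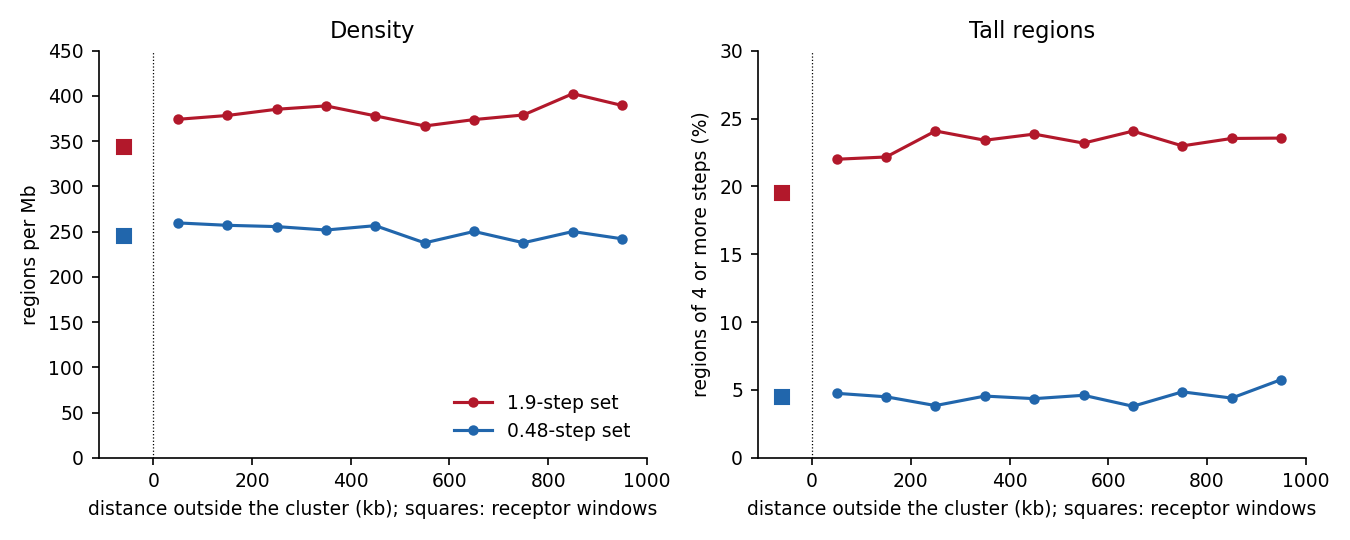
Regions per Mb (left) and share of regions of 4 or more steps in percent (right), in receptor gene windows of clusters of 5 or more genes (squares) and in bins of 100 kb outside the cluster border (points, horizontal axis in kb), pooled over clusters. The 1.9-step set stands at 343 per Mb in windows and at 367 to 403 per Mb outside; the 0.48-step set stands at 245 per Mb in windows and at 238 to 260 outside.

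The shortfall of 1.9-step regions lay mostly in the large clusters. Clusters with 50 or more genes, 5 in number with 564 genes, had a 1.9-step ratio to flanks of 0.830 (0.786 to 0.876). The ratio was 0.915 (0.863 to 0.970) in 11 clusters of 20 to 49 genes and 1.02 (0.944 to 1.09) in 16 clusters of 5 to 19 genes. The 20 clusters of 1 to 4 genes had a ratio of 1.02 (0.869 to 1.18). In the 0.48-step set the 4 size classes lay between 0.971 and 0.998.

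Among the 32 clusters of at least 5 genes, 22 had fewer 1.9-step regions per Mb than their own flanks, where 50% of 500 kb tiles of chromosomes 1 to 19 lay below theirs. With flanks restricted to sequence outside gene bodies, the number was 16 of 32. In the 0.48-step set 16 of 32 lay below their flanks, where the share of tiles was 48.4%. Ratios for the 1.9-step set ran from 0.723 to 1.56 with a median of 0.946, and for the 0.48-step set from 0.297 to 1.59 with a median of 0.993. Intervals lay wholly below 1 in 3 clusters and wholly above 1 in 2 clusters for the 1.9-step set, against 5.47% and 5.39% of tiles. For the 0.48-step set the counts were 3 and 3, against 4.09% and 3.55% of tiles. Of 32 clusters, 3 are 9.38% (95% Clopper-Pearson interval 1.98% to 25.02%) and 2 are 6.25% (0.766% to 20.8%), and these intervals include the shares of tiles. The comparison with tiles is not like for like, since the width of a counting interval depends on length. Windows of these clusters ran from 54.7 kb to 2451 kb, and tiles are 500 kb long.

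**Figure D3:**
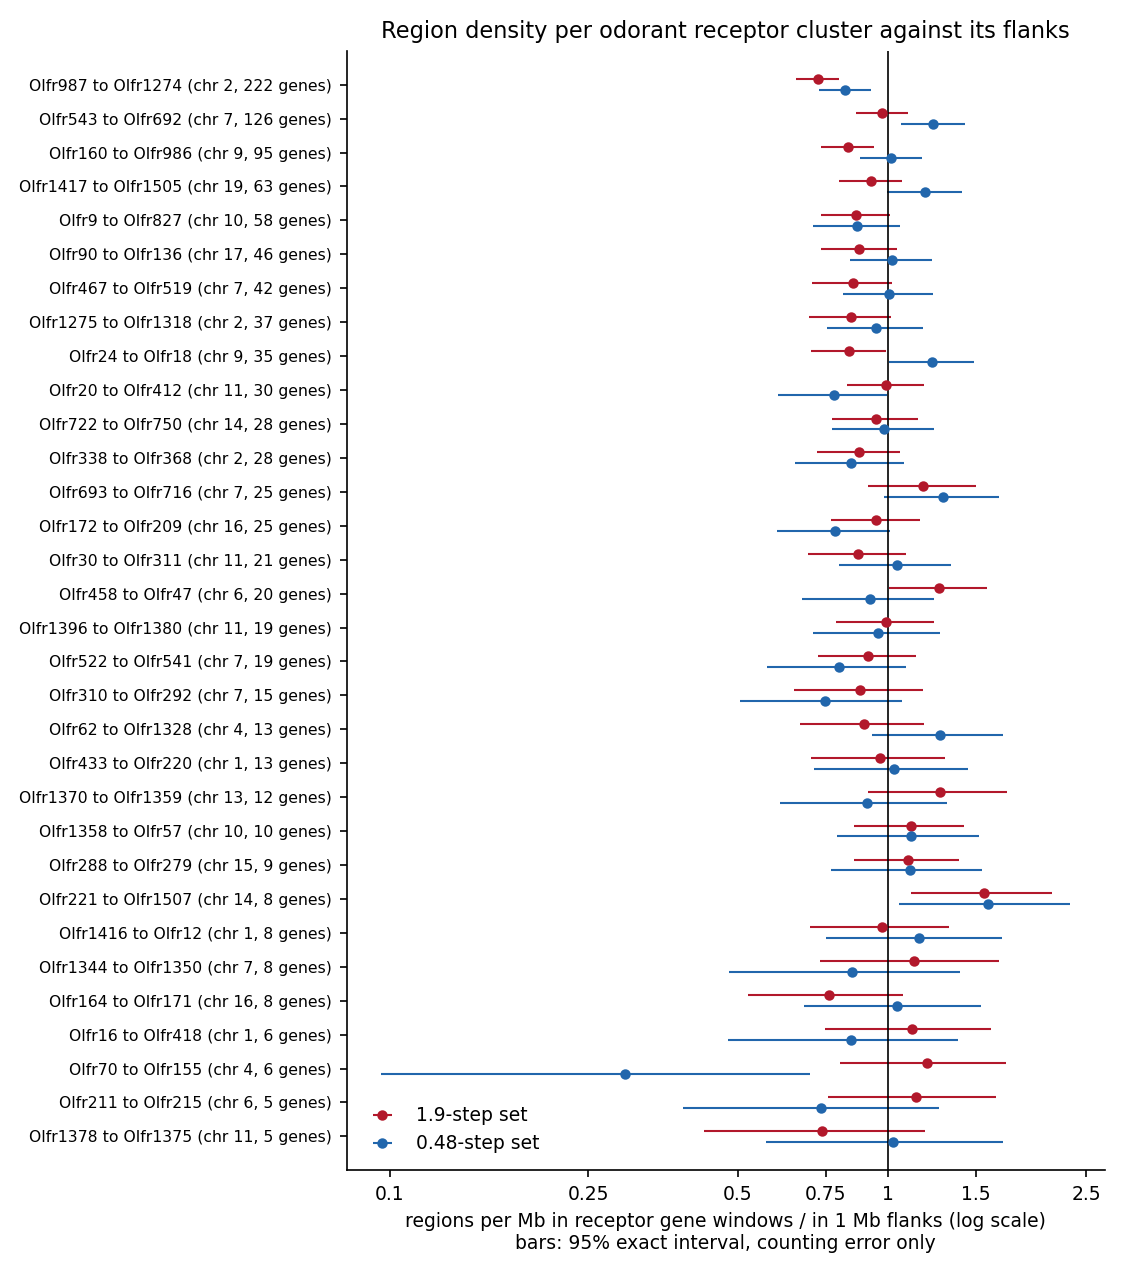
Regions per Mb in receptor gene windows divided by regions per Mb in the 1 Mb flanks (horizontal axis, log scale) for the 32 clusters of 5 or more genes, ordered by number of genes from top to bottom. Points are ratios of the 1.9-step (red) and 0.48-step (blue) sets, bars are exact 95% intervals for counting error, and the vertical line marks equal density; the chromosome 2 cluster of 222 genes at the top has a 1.9-step ratio of 0.723.

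The largest cluster, Olfr987 to Olfr1274 on chromosome 2 with 222 genes, had the lowest 1.9-step ratio among the 32 clusters of at least 5 genes. It spans chr2:85330967-90401674. Its windows held 303 1.9-step regions per Mb against 419 in its flanks, a ratio of 0.723 (0.654 to 0.799), and its 0.48-step ratio was 0.820 (0.728 to 0.924). In bins of 50 kb the median number of 1.9-step regions was 15 inside the cluster and 21 outside, and that of 0.48-step regions was 12 and 14. Without this cluster the ratio over all windows was 0.911 (0.880 to 0.943) for the 1.9-step set and 0.998 (0.957 to 1.04) for the 0.48-step set. One end of the cluster holds its emptiest stretch, chr2:90308980-90388246, where no region of either set was called over 79.3 kb. The 2 receptor genes without any member, Olfr1506 and Olfr1565, both on chromosome 2, lie there or close by: Olfr1565 at chr2:90322222-90329298 is inside the stretch, and Olfr1506 is at chr2:90217395-90224471. Both genes have windows of 17.1 kb, longer than the 10.951 kb of the median receptor gene.

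The cluster from Olfr543 to Olfr692 on chromosome 7, with 126 genes, spans the beta-globin genes and holds most class I receptors. It had ratios of 0.973 (0.862 to 1.10) in the 1.9-step set and 1.23 (1.06 to 1.42) in the 0.48-step set. These depend on its flanks, which contain 260 kb of 10 kb bins without any region, while its windows contain 0 kb of them. Leaving such bins out gave 0.847 and 1.07, and flanks outside gene bodies gave 1.17 and 1.57. The direction in the 1.9-step set therefore turns with the choice of flank. Inside the cluster the median number of 1.9-step regions per 50 kb was 15, against 20 outside. Its end genes were alike: Olfr543 had 5 members of the 1.9-step set and Olfr692 had 4, both with a greatest height of 7.6.

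**Figure D4:**
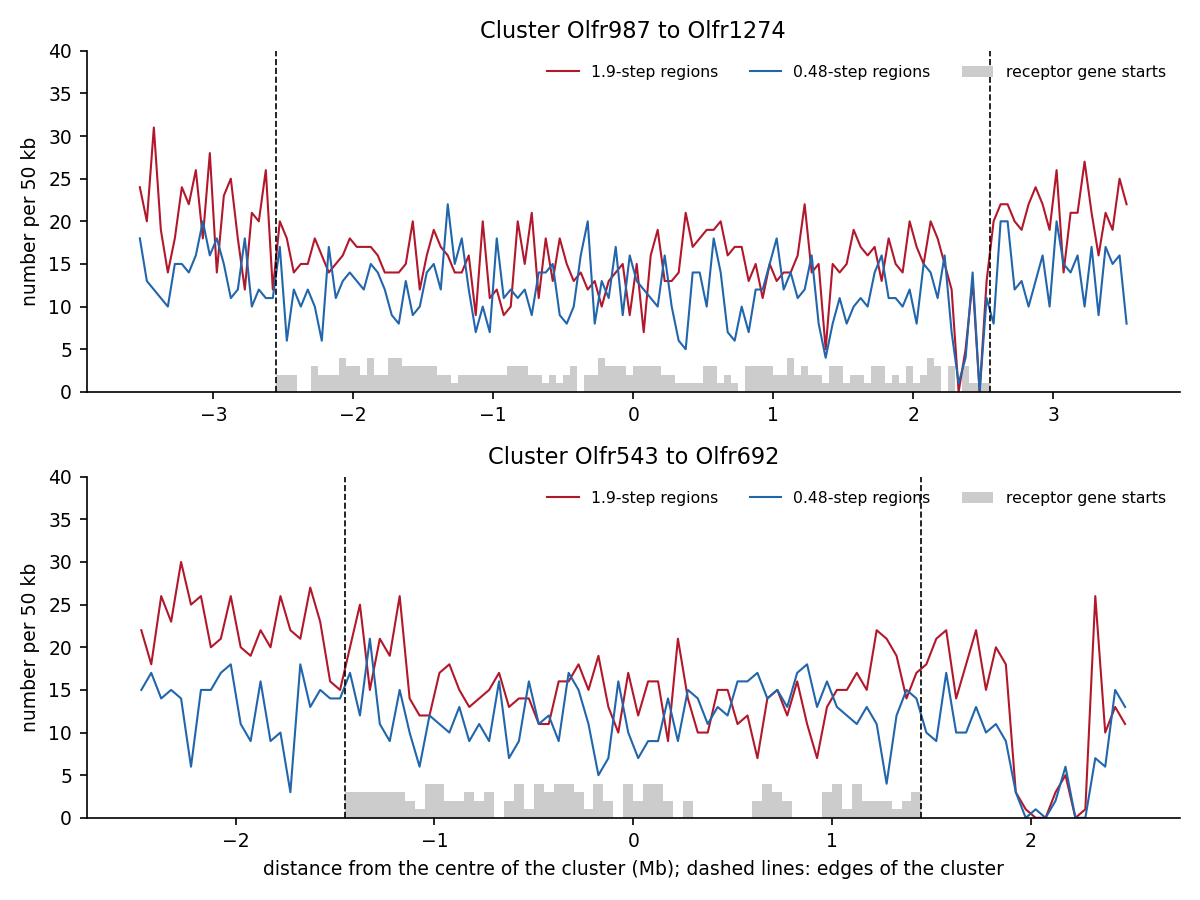
Number of called regions and of receptor gene starts per 50 kb (vertical axis) along the chromosome 2 cluster Olfr987 to Olfr1274 (top) and the chromosome 7 cluster Olfr543 to Olfr692 (bottom) with 1 Mb on either side; the horizontal axis is the distance from the cluster centre in Mb and dashed lines mark the cluster edges. In the top plot the 1.9-step median falls from 21 outside to 15 inside, with bins at 0 near the right edge; in the bottom plot the right flank contains bins at 0.

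The beta-globin genes inside that cluster encode the beta chains of haemoglobin and are active in red cells. Each of the 5, Hbb-bt, Hbb-bs, Hbb-bh1, Hbb-bh2 and Hbb-y, had 2 regions of the 1.9-step set in its window, some shared between neighbours. The greatest height was 7.6 at Hbb-bt and 5.7 at each of the others, within the usual range of the receptor members around them. The number of 1.9-step regions was lower than at those receptor genes. In a window of 10 kb around the gene's midpoint, the globin genes had a mean of 1.8 such regions. Receptor genes of the cluster had 3.44, and all protein-coding genes had 4.26. For the other step set these means were 3, 2.49 and 2.62. The differences were not tested.

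The other clusters of 50 or more genes had 1.9-step ratios of 0.831 (0.734 to 0.939) for Olfr160 to Olfr986 on chromosome 9, 0.924 (0.798 to 1.07) for Olfr1417 to Olfr1505 on chromosome 19 and 0.861 (0.733 to 1.01) for Olfr9 to Olfr827 on chromosome 10. Among the 32 clusters of at least 5 genes, Olfr221 to Olfr1507 on chromosome 14, with 8 genes, had the highest ratios in both sets, 1.56 (1.11 to 2.14) and 1.59 (1.05 to 2.32). Its flanks contain 290 kb of bins without any region, and without such bins the ratios were 1.33 and 1.35. The cluster Olfr70 to Olfr155 on chromosome 4 had the lowest 0.48-step ratio, 0.297 (0.0961 to 0.698), while its 1.9-step ratio was 1.20 (0.801 to 1.72). Among these 32 clusters, Olfr288 to Olfr279 on chromosome 15 had the highest density, 603.8 1.9-step regions per Mb, and its flanks had 551.

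Densities of the receptor classes lay close together. By the family numbers in RefSeq's synonyms, 125 genes are class I (families 1 to 42) and 955 class II, and 23 have no such name. Windows of class I genes held 333 1.9-step regions per Mb with a tall share of 21.0%, and those of class II genes 347 per Mb with 19.2%. Densities of the 0.48-step set were 246 and 247 per Mb. Its tall share was 2.45% (1.06% to 4.76%, 8 of 327 regions) for class I and 4.79% (4.02% to 5.67%) for class II, intervals that overlap, and the difference was not tested.

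Nearly every receptor gene had a called region near it, as did nearly every gene of the genome. A member of either set was present at 1101 of 1103 receptor genes, 99.8%, beside a background of 99.2% of protein-coding genes, so presence says little about this family. A 1.9-step member was present at 1092 genes (99.0%, beside 98.7% of protein-coding genes) and a 0.48-step member at 1054 (95.6%, beside 97.8%). A tall 1.9-step region lay in the window of 611 receptor genes (55.4%; 95% interval 52.4% to 58.4%), beside 87.2% of all protein-coding genes, whose bodies are longer. In a fixed window of 10 kb around the gene's midpoint, which removes the difference in length, the share was 51.0% (48.0% to 53.9%, 562 genes) beside 63.2%. For tall 0.48-step regions in the same fixed window it was 11.4% (9.61% to 13.4%, 126 genes) beside 11.0%. Receptor genes had on average 3.64 1.9-step regions in the fixed window, against 4.26 for all protein-coding genes.

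Members of great height were few. The tallest lay at chr14:49932599-49932743, 3031 bp from Olfr723: it was 145 bp wide and reached 30.4, which is 16 steps. No other member passed 9 steps. Heights of 17.1 were reached 92 bp from Olfr285 on chromosome 15 and 4177 bp from Olfr1480 on chromosome 19. Members of height 15.2 overlapped the bodies of Olfr316 on chromosome 11 and Olfr1314 on chromosome 2. Members of height 13.3 lay on the bodies of Olfr552, Olfr530 and Olfr1256 and 925 bp from Olfr1333. The tallest member at Olfr288 reached 11.4 and lay on its body. The tallest 0.48-step member, at 3.36, lay 4125 bp from Olfr1425 on chromosome 19. The tallest region within a cluster was no member: it reached 77.9 at chr9:19575415-19575622, between receptor windows of the cluster Olfr24 to Olfr18.

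Counts of members per gene singled out genes on chromosomes 10 and 15. Olfr285 and Olfr1351 each had 15 members in a window of 10.96 kb, or 1.37 per kb, and Olfr281 had 14. Olfr285 had 9 of the 1.9-step kind and 6 of the other, Olfr1351 had 8 and 7, and Olfr281 had 10 and 4. Olfr285, Olfr281 and Olfr288 belong to the same chromosome 15 cluster, whose flanks were dense as well. Those flanks held 551 1.9-step regions per Mb, against 391 over all flanks. Their tall share was 34.2%, against 26.7% in the windows of that cluster and 23.3% over all flanks. Olfr1351 lies in the chromosome 10 cluster Olfr1358 to Olfr57, with 469 1.9-step regions per Mb in windows and 422 in flanks. Tall shares there were 18.8% and 25.5%.

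The 1.9-step set was denser over receptor gene bodies than beside them, and its coverage was raised in the first kb after the annotated start. Coding sequence was not separated from the rest of the gene body. Gene bodies had 384 1.9-step regions per Mb, with 345 per Mb in the first kb beside the body and 325 per Mb at 4 to 5 kb. The edge of the windows is arbitrary: the last kb inside, at 4 to 5 kb, held 614 regions and the first kb outside held 594, at 340 per Mb. Around the annotated start of 938 receptor genes, 21.1% of bases in the first kb downstream were covered, against 16.4% at 5 to 10 kb on either side, 1.29 times as much. For 15197 other protein-coding genes the same shares were 21.4% and 21.0%, a ratio of 1.02, and their coverage was highest before the start, at 23.0% in the kb upstream. In the kb upstream of receptor starts it was 17.8%. The 0.48-step set showed a smaller difference at receptor genes, 6.01% against 5.51%. The ratio for the 1.9-step set stayed between 1.22 and 1.31 when each of the 5 largest clusters, or chromosomes 5, 10 and 15, were left out in turn, and for genes with and without a start codon at the annotated start.

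**Figure D5:**
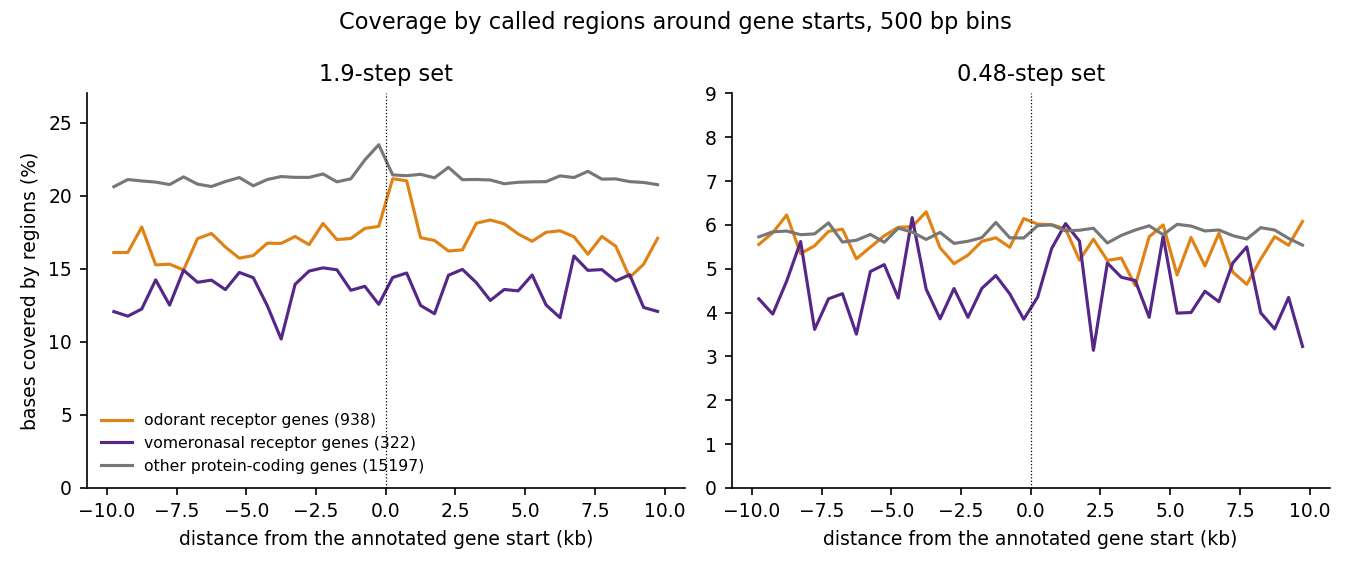
Share of bases covered by called regions, in percent (vertical axis), in bins of 500 bp by distance from the annotated gene start in kb (horizontal axis, positive within and beyond the gene), for the 1.9-step set (left) and the 0.48-step set (right). Lines are pooled over 938 odorant receptor genes (orange), 322 vomeronasal receptor genes (purple) and 15197 other protein-coding genes (grey); the orange 1.9-step line rises to 21.1% in the first kb after the start from 16.4% at 5 to 10 kb.

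Base composition also changes at the start, in receptor genes and in other genes. In the 250 bases before the start the median GC content was 34.0% for receptor genes and 53.2% for other genes. In the 50 bases after the start it was 44.0% and 56%. Coverage of other genes by the 1.9-step set was lower in the kb after the start than in the kb before, 21.4% against 23.0%. The part of base composition in the raised coverage was not tested.

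Before the start, receptor genes were touched less often than other genes by 1.9-step regions, and no such difference was seen beyond counting error for 0.48-step regions. Of the 1103 receptor genes, 938 had a start in the RefSeq table, with 942 windows of 250 bases. A 1.9-step region touched 27.6% of these windows (95% interval 24.8% to 30.6%) and 32.9% (32.4% to 33.5%) of the 30131 windows of other genes. A 0.48-step region touched 13.5% (11.4% to 15.8%) and 11.6% (11.3% to 11.99%). Among windows with a GC content under 35% the 1.9-step shares were 26.2% of 539 receptor windows and 26.0% of 899 other windows. They were 29.0% and 30.9% at 35 to 40% GC, 30.7% and 30.6% at 40 to 45%, 26.8% and 33.3% at 45 to 50%, and 34.8% and 33.8% above. In each of these classes the interval of the receptor share includes the share of other genes, and the classes from 45% up hold only 56 and 23 receptor windows.

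TAATTA and TGATAC were more frequent in receptor windows than over all genes, and the Ebf core was less frequent. TAATTA occurred in 18.2% of receptor windows and 4.81% of all 31396 windows, and TGATAC in 12% and 4.70%. The Ebf core occurred in 0.425% and 0.790%. All were searched on both strands, and no motif contains another. These cores are rich in A and T apart from the last, as the receptor windows are. Receptor windows touched by a 1.9-step region held TAATTA in 15.8% of cases and TGATAC in 8.85%, and those not touched in 19.1% and 13.2%. For 0.48-step regions the shares were 22.8% and 11.8% in touched windows and 17.4% and 12.02% in the others. These differences were not tested.

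The step sets coincided slightly less often at receptor genes than around them. In receptor windows 25% of 0.48-step regions overlapped a 1.9-step region (23.5% to 26.6%), and in flanks 29.0% did (28.4% to 29.6%). The lower share is not particular to these windows. It was 23.5% between the windows inside clusters and 25.3% in gaps of at least 1 Mb between protein-coding genes. At vomeronasal receptor genes it was 23.3% in windows and 27.9% in flanks. Trace amine receptor windows had a higher share than their flanks, 43.75% of 32 regions (26.4% to 62.3%) against 28.8% (24.9% to 33.0%), but these intervals overlap. The 1.9-step set covers fewer bases in the windows, 17.3% against 19.96%, and the part of that in the overlap was not tested.

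Vomeronasal receptor genes are the other large family of chemosensory receptors in tandem arrays, and 1 cluster weighed heavily on their lower pooled ratios. Their windows had a 1.9-step ratio to flanks of 0.787 (0.751 to 0.824) and a 0.48-step ratio of 0.870 (0.824 to 0.919), and neither interval overlaps that of odorant receptors. The cluster Vmn1r91 to Vmn1r183 on chromosome 7, with 86 of the 351 genes, had ratios of 0.267 and 0.337. Without it the family's ratios were 0.867 (0.827 to 0.910) and 0.952 (0.900 to 1.01), which overlap the intervals of odorant receptors. Odorant receptors without their own largest cluster had 0.911 (0.880 to 0.943) and 0.998 (0.957 to 1.04), which overlap these too. Intervals of the 1.9-step ratio lay wholly below 1 in 4 of 16 vomeronasal clusters and wholly above 1 in 2, against 5.47% and 5.39% of tiles. Here too the lengths of clusters and tiles differ, so these shares are not like for like. The median ratio over clusters of at least 5 genes was 0.941 and 0.957 for vomeronasal receptors, beside 0.946 and 0.993 for odorant receptors. Of 10 kb bins in vomeronasal clusters, 13.4% had no region of either set, and 6.03% without that cluster, against 0.959% in odorant receptor clusters, 1.38% in their flanks and 1.18% of chromosomes 1 to 19. In the first kb after the start, vomeronasal receptor genes had 14.6% of bases covered by the 1.9-step set and 13.6% at 5 to 10 kb, a ratio of 1.07 beside the 1.29 of odorant receptors. The difference between the families was not tested beyond these intervals.

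Genes of olfactory signalling and receptor choice, a list of 30, all had a region of either set in their windows. The list runs from the transduction cascade (Gnal, Adcy3, Cnga4, Cngb1, Ano2) to factors of receptor gene choice (Lhx2, Ldb1, Ebf genes, Kdm1a). A tall 1.9-step region was present at 26 of 30, 86.7%, beside 87.2% of all protein-coding genes. In the fixed 10 kb window it was 16 of 30, 53.3%, beside 63.2%. The tallest were 17.1 at Ano2, the calcium-activated chloride channel of the olfactory cilium, 15.2 at Ric8b, which helps the olfactory G protein fold, and 13.3 at both Ebf4 and Cngb1. The windows of these genes are long, from 77.5 kb at Cngb1 to 359.7 kb at Ano2, against a median of 27.6 kb for all protein-coding genes. A longer window holds more regions from which the greatest height is taken. At Six3 itself the greatest height was 9.5, equal to the median for all protein-coding genes. The list was chosen with earlier results of these data known, and its shares lie close to or below the background.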

How the data were processed

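Mouse neural stem cells with overexpressed Six3 gave 3 FLAG libraries and 1 IgG library. The authors deposited a single region table without a header; its signal columns, the highest and the summed signal of each region, are used as deposited. Bowtie2, deepTools, SEACR and mm10 are named per the submitters' processing notes; versions, parameters, order and how libraries were combined: not given in the sources used here. A planned FLAG against IgG test (limma or edgeR) was not run, because no column holds 1 library. Depth per library is unknown.

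Genes, synonyms and upstream sequences came from RefSeq tables of GRCm38.p6, whose coordinates are those of mm10. Of 1104 receptor genes matched by symbol, 1 has coordinates outside the called part of its chromosome and was left out. Windows were gene bodies with 5 kb on either side, merged. Regions were assigned to a step set within 0.001 of a whole multiple of 1.9 or 0.48, and placed by midpoint for densities. Ratios have exact conditional binomial 95% intervals and shares have Clopper-Pearson intervals, both for counting error only; regions are not replicates, and no p-value is given. Background shares come from 500 kb tiles with their own 1 Mb flanks, and from all protein-coding genes.

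Named genes are the 10 with the tallest members, up to 5 without a member, the 3 with most members per kb, the ends of the cluster that spans the beta-globin genes, those globin genes, up to 6 of the olfactory list and Six3. Genes named with the tallest 0.48-step member, and the region between windows on chromosome 9, were chosen after their values were seen. The members, lists and step sets were chosen with earlier results of these data known. On simulated data a planted ratio of 0.8 came back as 0.798 on average (0.770 to 0.844) and a planted ratio of 1 as 1.00 (0.983 to 1.02), over 20 runs each. The simulated regions were placed evenly at random, without empty stretches or differences in gene content. The runs therefore check the calculation only. Alternatives changed the window, gap, flank, placement, step tolerance, heights, chromosomes and clusters. Versions were Python 3.11.15, scipy 1.17.1, pandas 2.3.3, numpy 2.4.6 and matplotlib 3.10.9.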

Additional observations from a re-analysis of the deposited data

How the results depend on the processing

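Of 115 alternative values for the densities, tall shares, cluster counts, gene shares and the overlap of the sets, 103 stayed within the counting interval or within 1.5 times the count, and 12 moved. This tally overstates how much was varied. It holds the values without the largest cluster more than once, and those at the wider step tolerance, which changed nothing. The rule for counts is wide: 16 of 32 clusters passed as the same as 22, and no count up to 32 could move upward from 22. Gaps between genes and sequence between the windows, described above, were not among the alternatives. The 1.9-step ratio and tall share difference, whose intervals leave out 1 and 0, changed direction under none of the alternatives. The intervals of the 0.48-step ratio (0.979) and tall share difference (0.13 percentage points) include 1 and 0; the ratio passed 1 under 2 of 21 alternatives and the tall share difference fell below 0 under 3 of 19. The 1.9-step density ratio was below 1 under all 21 alternatives. It moved to 0.983 with gene bodies alone as windows (0.916 to 1.05, which includes 1), 0.915 with any overlap in place of midpoints, 0.947 with flanks outside protein-coding genes and 0.821 with regions of 3 or more steps. The 0.48-step ratio moved to 1.03 with flanks outside genes and 1.02 with regions of 3 or more steps. With gene bodies alone the tall share differed from the flanks by -5.39 percentage points for 1.9-step regions and 1.45 for 0.48-step regions. The share of receptor genes with any region moved to 69.0% with gene bodies alone. The share with a tall 1.9-step region was 13.7% with gene bodies alone, 77.6% with 10 kb on either side and 51.0% in the fixed window, since wider windows hold more regions. The number of clusters below their flanks ran from 16 to 25 of 32 for 1.9-step and from 15 to 20 of 32 for 0.48-step regions, and was 28 and 20 of 43 with clusters of 2 or more genes, 23 and 16 of 34 with gaps of 250 kb, and 21 and 15 of 29 with gaps of 1000 kb. Alternatives that leave out a cluster of 50 or more genes, or vomeronasal windows from the flanks, ratios of single clusters under other flanks, and the vomeronasal ratio without its largest cluster, were chosen after seeing the data.

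No paired analysis was possible because no region is tied to a library, and a single IgG library was made; for that reason libraries could not be left out in turn either. With depth unknown, no floor can be given for the lowest heights, which are 2 steps in both sets.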

Other observations

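Pseudogenes of the family had densities close to those of the intact genes. Windows around 315 Olfr pseudogenes, outside the windows of protein-coding receptor genes, held 351 1.9-step and 247 0.48-step regions per Mb, with a tall share of 19.7% in the 1.9-step set and 2.79% (95% interval 1.66% to 4.37%) in the 0.48-step set. In the windows of protein-coding receptor genes the densities were 345 and 245 per Mb and the tall shares 19.4% and 4.58% (3.87% to 5.38%).

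On chromosome X, 6 odorant receptor genes had 198 1.9-step and 243 0.48-step regions per Mb in their windows, from 13 and 16 regions. The whole chromosome had 177 and 181 per Mb.

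Trace amine receptors, a small family of olfactory receptors in a single array, had a larger share of tall regions than odorant receptors, at 387 1.9-step regions per Mb. All 15 genes had a tall 1.9-step region in their windows, beside 87.2% of all protein-coding genes. The tall share was 35.6% of 59 regions (95% interval 23.6% to 49.1%) against 22.6% in their flanks (19.6% to 25.7%), intervals that overlap, and 19.4% in odorant receptor windows (18.2% to 20.6%). Neighbouring windows share these regions.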
